A study of Mus musculus with 3 samples.

Results

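The regions described here are the sites on mouse chromosome 10 at which HA-tagged NUR77 was found by chromatin immunoprecipitation followed by sequencing (ChIP-seq) in C2C12 cells. C2C12 is a mouse myoblast line, a model of the precursor cells that fuse into muscle fibres. Peaks of the 3 replicate lists that overlapped or abutted were joined into regions, and members were chosen by the position and the replicate count of their peaks: a region on chromosome 10 was kept when at least 2 replicates had a peak in it. This gave 587 members out of 1044 joined regions on the chromosome, and out of 6865 regions found in at least 2 lists in the whole series. The other 457 regions on chromosome 10 came from a single replicate. Built without replicate 2 the set would hold 367 members, and without replicate 3 it would hold 335. With a list left out, here and below, a member needs a peak in both remaining lists, so the rule is also stricter.

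All samples belong to 1 group of 3 replicates. Each is a culture of a stable pINDUCER20b-HA-NUR77 line, grown in 18 dishes, in which the transgene was induced for 18 h by doxycycline (Dox) at 1 µg/mL. All 3 cultures were crosslinked with 2 mM DSG for 45 min and with 1% formaldehyde for 15 min. Chromatin was precipitated with an anti-HA antibody. Whether the receptor touches the DNA directly at a member was not tested. The tagged receptor is thus an overexpressed transgene product, which the antibody sees in place of the endogenous protein, and the labels do not say whether the line is a single clone. No uninduced culture, input library or control antibody was analysed here. The labels do not state that the replicates are separate experiments, and differences between lists may therefore be partly technical.

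NUR77, encoded by Nr4a1, is an orphan nuclear receptor of the NR4A family and an immediate-early gene product. It binds DNA as a monomer at the NBRE element, as a homodimer at the palindromic NurRE element, or together with the retinoid X receptor. In skeletal muscle it is known for its part in glucose and oxidative metabolism and in muscle growth. Peak positions are in the mm9 build. No mm9 sequence or gene annotation was used, so the members are given by position and are not assigned to genes, exons, introns or promoters, and no sequence is shown.

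The lists held 406, 646 and 900 chromosome 10 peaks in the order of the replicate numbers, which is 9.09%, 8.33% and 8.32% of each list. Whole lists ran from 4468 to 10817 peaks, and the number of reads behind them is unknown. Each peak carries a caller score as deposited by the authors. Because the statistic behind the score is not given in the sources used here, scores were turned into percentiles within their own list, where 100 is the best peak of the list. The chromosome was chosen with its high density already known from these lists, so its density is a description and was not tested. With 1 group of 3 lists there is also no permutation over samples to run.

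Members were more frequent on chromosome 10 than on any other autosome. The first chromosome 10 peak of any list started at 3064527 and the last ended at 129871727, a span of 126.8 Mb. The members covered 240.97 kb, or 0.190% of it. There were 4.63 members per Mb, against 2.74 per Mb over the other 18 autosomes together, a ratio of 1.69. The autosome nearest to it, chromosome 15, had 3.88 per Mb, and the sparsest, chromosome 13, had 2.07. Members with all 3 replicates were also densest on chromosome 10, at 2.52 per Mb, where the other autosomes ranged from 1.02 to 2.20. Single-replicate regions showed the same order at the top, with 3.60 per Mb on chromosome 10 and at most 3.43 elsewhere, on chromosome 11.

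**Figure D1:**
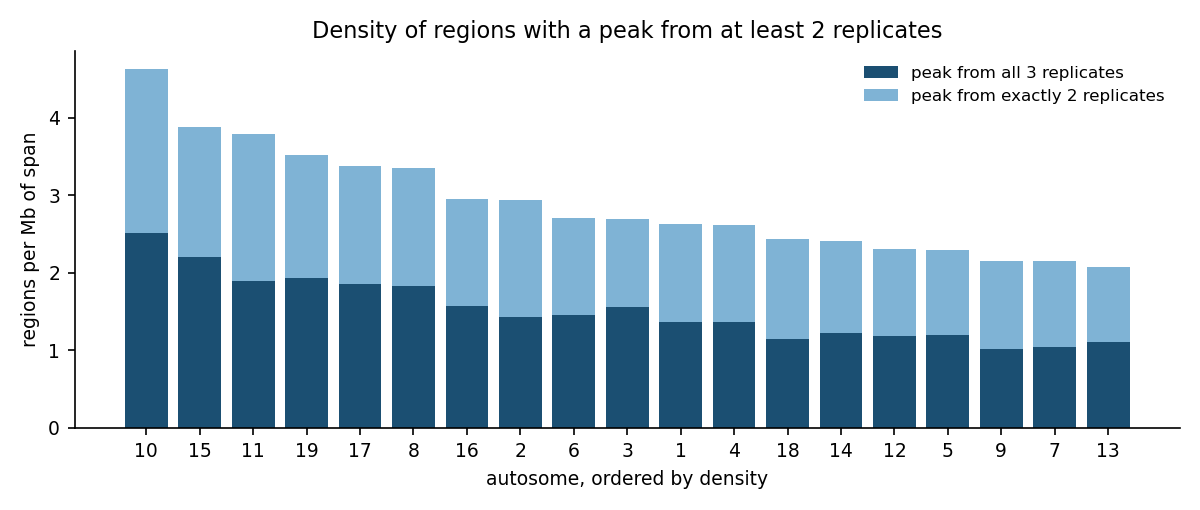
Regions found in 2 or more replicates, per Mb of chromosome span (y axis) on each of the 19 autosomes (x axis, ordered by density), split into regions with all 3 replicates (dark) and with exactly 2 (light). Chromosome 10 stands at 4.63 per Mb and chromosome 15, the next, at 3.88.

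Each list on its own placed chromosome 10 first among the 19 autosomes. Replicate 1 had 3.20 peaks per Mb there, and its next densest autosome, chromosome 15, had 2.53. Replicate 2 had 5.09 per Mb against 4.41 on chromosome 11, and replicate 3 had 7.10 against 6.17 on chromosome 11. Relative to the other autosomes together the density was 1.80, 1.64 and 1.64 in replicates 1, 2 and 3, a mean of 1.70 ± 0.09 (SD, n = 3). The shortest list thus gave the highest relative density, and replicates 2 and 3 gave nearly the same one. Gene content, copy number and mappable sequence of the chromosomes were not analysed here.

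The excess was larger among high-scoring peaks. Peaks above percentile 75 of their own list were 2.04, 1.98 and 1.97 times as dense on chromosome 10 as on the other autosomes, a mean of 2.00 ± 0.04 (SD, n = 3). Peaks between percentiles 50 and 75 stood at 1.65 ± 0.13, those between 25 and 50 at 1.53 ± 0.10 and those up to 25 at 1.61 ± 0.23. In each list the best-scoring class had the largest ratio of the 4 classes, and the values of the lower classes, which ran from 1.35 to 1.80, all lay below 1.97. Put the other way, 28.1% (95% Wilson interval 23.9 to 32.6%), 29.9% (26.5 to 33.5%) and 29.7% (26.8 to 32.7%) of the chromosome 10 peaks in replicates 1, 2 and 3 were above percentile 75 of their list. The other autosomes together had 24.8%, 24.7% and 24.8%. In all 3 lists chromosome 10 ranked second of the autosomes by this share, behind chromosome 15, which reached 28.5%, 31.4% and 31.5%. These intervals cover counting error over peaks, which are not replicates.

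**Figure D2:**
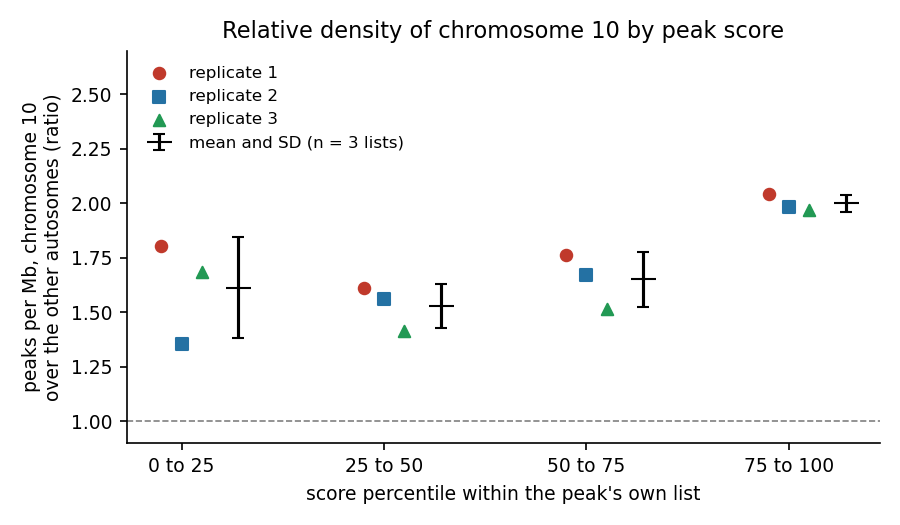
Peaks per Mb on chromosome 10 divided by peaks per Mb on the other autosomes (y axis) for 4 classes of the score percentile within each list (x axis), with 1 point per replicate list and the mean and SD over the 3 lists in black. All points lie above 1, and the 3 points of the best-scoring class, from 1.97 to 2.04, lie above those of the lower classes.

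Among members the excess was also larger at high percentiles, though not largest in the top class. Those with a mean percentile of 75 to 90 were 2.10 times as dense as on the other autosomes and those at 90 or above 1.94 times, whereas those at 25 to 50 were 1.50 times as dense. Of the 587 members, 60 (10.2%, 95% Wilson interval 8.02 to 12.9%) had a mean percentile of at least 90. On the other autosomes 8.91% of the regions found in at least 2 lists did, a share inside the interval. The median percentile of the members was 56.3, 63.3 and 71.1 in replicates 1, 2 and 3. On the other autosomes the medians lay between 46.2 and 58.5 in replicate 1, between 49.1 and 63.3 in replicate 2 and between 61.6 and 72.1 in replicate 3. Chromosome 10 was exceeded by 2 autosomes in replicate 1, by 2 in replicate 3 and by none in replicate 2, where its median of 63.33 was barely above the 63.27 of chromosome 19.

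Support by the replicates was close to that elsewhere. Of the joined regions on chromosome 10, 56.2% (95% Wilson interval 53.2 to 59.2%) had a peak from at least 2 replicates, the rule for membership, beside 54.5% on the other autosomes. All 3 replicates had a peak in 319 members, or 54.3% (50.3 to 58.3%), beside 52.3% on the other autosomes, a share that lies inside the interval. Chromosome 10 ranked sixth of 19 by this share, and the others ran from 47.0% on chromosome 18 to 57.7% on chromosome 3. Of the members with exactly 2 replicates, 204 lacked replicate 1, 48 lacked replicate 2 and 16 lacked replicate 3. These were 34.8%, 8.18% and 2.73% of all members, beside 38.9%, 6.30% and 2.52% on the other autosomes. High density on chromosome 10 was therefore not accompanied by a support outside the range of the other autosomes.

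Most peaks of the shortest list were in members. A member held 94.3% of the chromosome 10 peaks of replicate 1, 83.4% of those of replicate 2 and 63.7% of those of replicate 3. The same shares on the other autosomes were 94.3%, 82.7% and 61.9%. Single-replicate regions numbered 23 from replicate 1, 107 from replicate 2 and 327 from replicate 3, in the order of list length.

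Members with more support had higher scores and were wider. In replicate 1 the median percentile was 62.8 for peaks in members with all 3 replicates, 21.9 for those with exactly 2 and 20.7 for single-replicate regions. In replicate 2 the medians were 77.6, 40.4 and 23.5, and in replicate 3 they were 84.5, 48.9 and 25.2. The gap between the lower classes was thus small in replicate 1 and wide in replicates 2 and 3. Low scores did occur with full support: the weakest peak of a member with all 3 replicates stood at percentile 0.0783 in replicate 1, 0.606 in replicate 2 and 0.975 in replicate 3. Joined widths had a median of 450 bp with all 3 replicates, 350 bp with exactly 2 and 250 bp for single-replicate regions. Over all members widths ran from 150 to 749 bp with a median of 401 bp, beside 400 bp on the other autosomes. Joining more peaks makes a region wider by construction, but the peaks of single lists, which joining does not alter, also differed. With all 3, exactly 2 and 1 replicate their median widths were 350, 250 and 250 bp in replicate 1. They were 350, 300 and 250 bp in replicate 2 and 400, 305.5 and 250 bp in replicate 3.

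Within members, the peaks of the replicates had midpoints close together. Peaks of a member overlap or abut, directly or through another peak, so the joining rule itself limits the distance between their midpoints. The midpoints of replicates 1 and 2 were a median of 29 bp apart over 335 members. Replicate 3 differed from replicate 1 by a median of 30 bp over 367 members and from replicate 2 by 26 bp over 523. Between 91.2% and 92.1% of these distances were at most 100 bp, and the largest was 376 bp. Median distances on the other autosomes were 30, 29 and 28 bp for the same pairs of lists, in that order. Peaks of replicate 3 were wider than those of replicate 1 in 238 of the 319 members with all 3 replicates and narrower in 17. Across these 319 members score percentiles had a Spearman rho of 0.72 between replicate 1 and either other list. It was 0.79 between replicates 2 and 3. Members share their libraries and are not replicates. On the other autosomes rho was 0.72 for replicates 1 and 2, 0.71 for 1 and 3 and 0.79 for 2 and 3. Only 2 of the 587 members held more than 1 peak from the same list.

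Along the chromosome the members came in blocks. In 1 Mb bins counted from the chromosome's start, 127 bins ran from the first to the last peak, with a median of 3 members and a maximum of 16. The fullest were 59 to 60 Mb and 80 to 81 Mb, with 16 members each, followed by 66 to 67 Mb with 15. In the bin at 59 to 60 Mb replicates 1, 2 and 3 had 11, 18 and 23 peaks, and in the bin at 80 to 81 Mb they had 12, 12 and 21. Of the 16 members in each of these bins, 8 had all 3 replicates. The bin at 41 to 42 Mb held fewer members, 13, but 11 of them had all 3 replicates.

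Crowded bins were common on chromosome 10. The chromosome was chosen with its density known, and a higher density by itself gives more crowded bins and fewer empty ones. It also gives fuller 5 Mb bins and shorter distances and gaps, described below. Such values therefore restate the density in part. There were 20 bins with 10 or more members, 15.7% of the 127 (95% Wilson interval 10.4 to 23.1%), beside 3.03% of the bins on the other autosomes, where chromosome 15 had the highest share, 9.90%. Without replicate 2 there were 6 such bins (4.72%, beside 0.307% elsewhere), and without replicate 3 there were 3 (2.36%, beside 0.220%). These 20 bins held 248 members, or 42.2% of all, whereas such bins held 13.6% of the regions on the other autosomes. Empty bins numbered 23, or 18.1% (12.4 to 25.7%), beside 31.2% on the other autosomes. Chromosome 11, at 16.0%, was the single autosome with a lower share of empty bins. The intervals cover counting error over bins, which are not independent. Measures of how unevenly the bins were filled differed. The fullest 10% of bins held 29.5% of the members, below the median of 34.0% of the other autosomes, which ranged from 26.7% to 40.6%. The variance of the counts per 1 Mb bin divided by their mean was 3.83, above the median of 3.22 elsewhere and exceeded on 2 autosomes. Single bins elsewhere were fuller, up to 44 regions on chromosome 8.

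**Figure D3:**
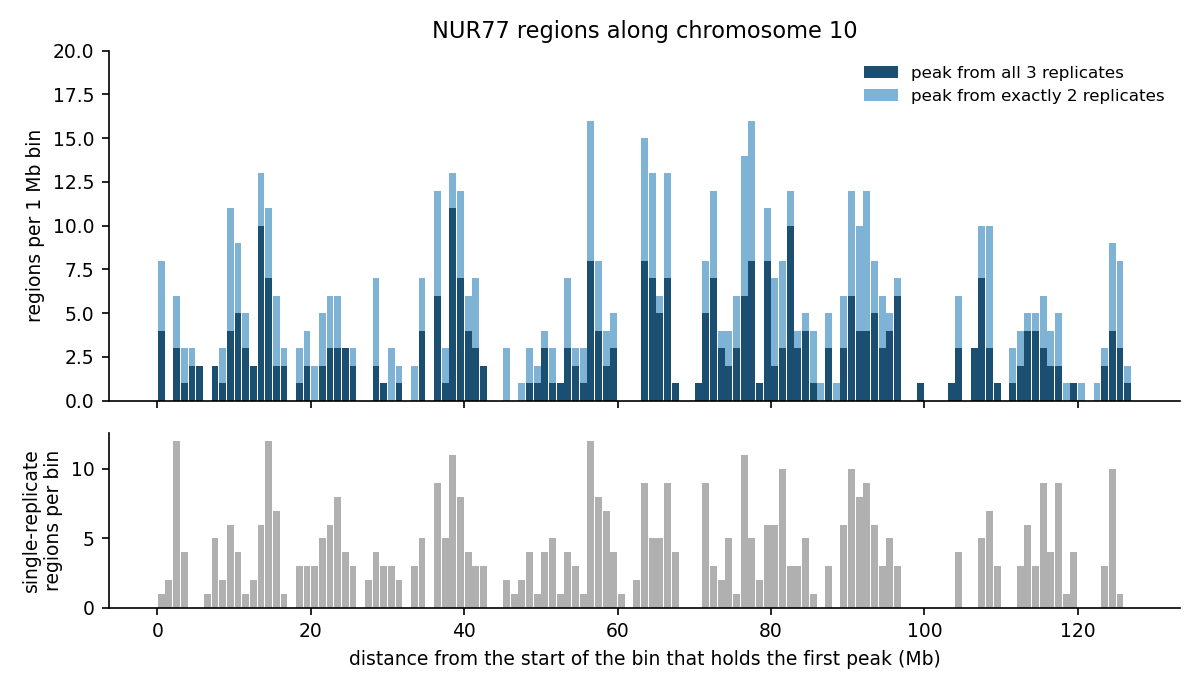
Regions per 1 Mb bin (y axis) against the distance from the start of the bin that holds the first chromosome 10 peak (x axis, Mb). Dark bars count members with all 3 replicates, light bars those with exactly 2, and the lower panel counts single-replicate regions. The fullest bins hold 16 members, and empty bins interrupt the blocks, most of all about 100 Mb along the axis.

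The longest unbroken run of occupied 1 Mb bins went from 73 to 100 Mb. It had 27 bins and 190 members, 32.4% of all, at 7.04 per Mb. Shorter runs were denser or nearly as dense, with 48 members from 66 to 71 Mb (9.60 per Mb), 55 from 39 to 46 Mb (7.86 per Mb) and 65 from 10 to 20 Mb (6.5 per Mb). Runs from 50 to 63 Mb and from 114 to 124 Mb were thinner, at 4.62 and 3.5 per Mb. Among the other autosomes only chromosome 11 had a longer occupied run, with 34 bins.

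In 5 Mb bins the counts ran from 1 to 47 with a median of 22, above the medians of all other autosomes, which were between 9 and 16. The fullest were 65 to 70 Mb with 47 members, 80 to 85 Mb with 43 and 40 to 45 Mb with 41. Replicates 1, 2 and 3 had 32, 52 and 67 peaks in the fullest bin, and it was the fullest bin of each list. The emptiest was 100 to 105 Mb, with 1 member and 1 peak in every list. The bin at 45 to 50 Mb followed with 5 members and 6, 7 and 5 peaks in replicates 1, 2 and 3, so there the longest list had the fewest peaks. The next, 0 to 5 Mb, had 8 members, as had 120 to 125 Mb, but the former is covered only from the first peak at 3064527. Of the 26 bins, 20 exceeded the median of 12 in the 474 bins of the other autosomes, and 2 of those 474 reached 47. Without replicate 3 the fullest bin held 27 members.

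**Figure D4:**
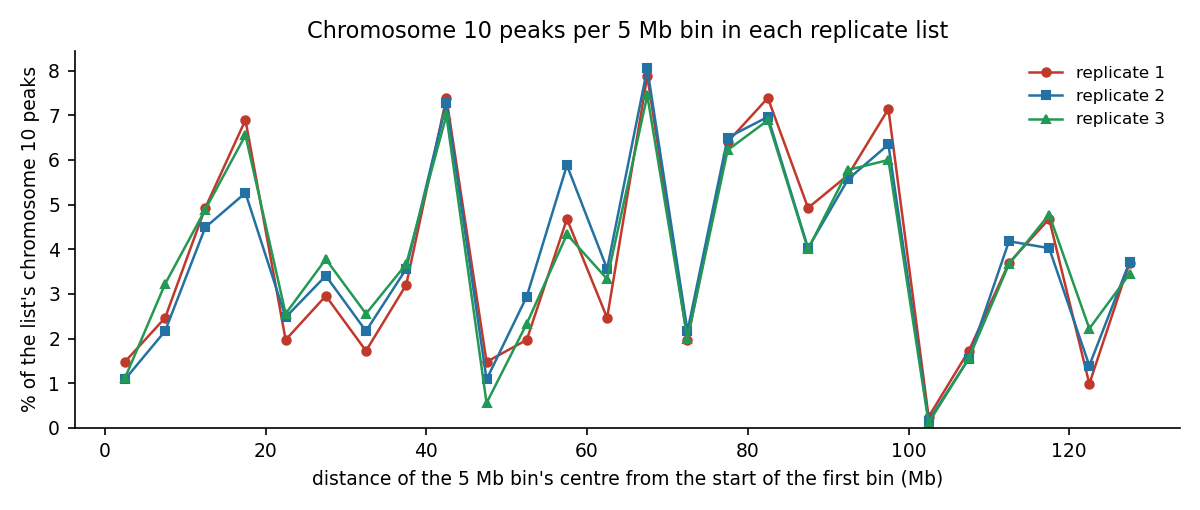
Share of each list's chromosome 10 peaks (y axis, %) in 5 Mb bins (x axis, distance of the bin's centre from the start of the first bin, Mb), with 1 line per replicate. The 3 lines have similar shapes, with 32, 52 and 67 peaks in the fullest bin and 1 peak each in the emptiest.

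The profile was shared between lists. Across the 26 bins of 5 Mb the peak counts of the 3 pairs of lists had Pearson r values between 0.96 and 0.97. In the 127 bins of 1 Mb the values lay between 0.91 and 0.94. Single-replicate regions followed the members less closely, with r = 0.87 over 5 Mb bins and 0.76 over 1 Mb bins. Bins of a chromosome share the same libraries and are not independent. How full a bin was said little about how strong its members were: across the 26 bins, the number of members and their median percentile had r = 0.05. The bin at 115 to 120 Mb, with 24 members, had a median percentile of 71.0, and the bin at 55 to 60 Mb, with 30, had one of 45.0.

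Neighbouring members lay closer together than on any other autosome. The median distance, from the end of a member to the start of the next, was 68.3 kb, where the other autosomes ranged from 76.4 kb on chromosome 15 to 185.2 kb on chromosome 9. The quartiles were 19.1 and 195.9 kb, beside 33.9 and 336.5 kb on the other autosomes together. Divided by the mean distance of 216.0 kb, the median was 0.316, inside the range of 0.235 to 0.447 elsewhere and eleventh from the highest of 19. Relative to its density, chromosome 10 thus had a spacing in the middle of the autosomes. Leaving out replicate 2 gave a median of 129.2 kb, and leaving out replicate 3 gave 150.1 kb. The smallest distance was 696 bp, and 4 of 586 distances were at most 1 kb.

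**Figure D5:**
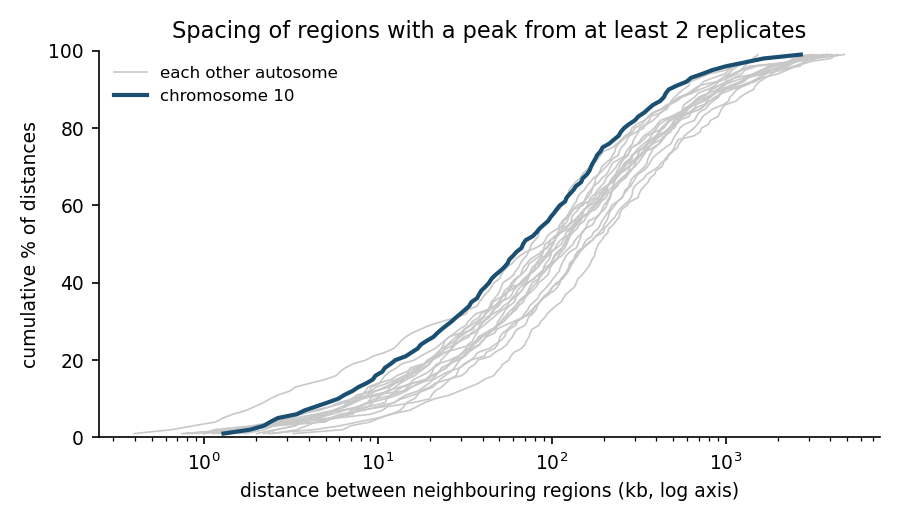
Cumulative share of the distances between neighbouring regions (y axis, %) by distance (x axis, kb, log scale) for chromosome 10 (dark) and each other autosome (grey). The chromosome 10 curve crosses 50% at 68.3 kb, left of all the others at that height, while chromosome 8 has more of the shortest distances.

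Another member lay within 10 kb of 176 members, or 30.0% (95% Wilson interval 26.4 to 33.8%), beside 19.9% on the other autosomes, and chromosome 8, at 31.9%, had a higher share. This difference shrank when fewer regions were counted. Among members with all 3 replicates the share was 14.4%, beside 12.7% elsewhere. It was 16.1% beside 13.0% without replicate 2, and 15.2% beside 12.8% without replicate 3. The support of members with and without a close neighbour had overlapping intervals: 54.5% (47.2 to 61.7%) of them had all 3 replicates, against 50.8% (42.1 to 59.5%) of the 122 members more than 100 kb from any other. Their median percentiles were 47.5, 63.8 and 71.2 in replicates 1, 2 and 3, and those of the remote members were 60.4, 63.1 and 66.1, so the order differed between lists.

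The 176 members formed 80 chains in which each neighbour was at most 10 kb away. Of these, 69 were pairs, 7 were triplets and 4 had 4 or 5 members. The other autosomes together had 14 chains of 4 or more. Pairs held 23.5% of the members, beside 14.9% of the regions elsewhere, and triplets held 3.58% beside 3.49%. The 3 chains of 4 held 2.04% of the members, beside 0.388% of the regions in 6 chains elsewhere. The chain of 5 held 0.852%, beside 0.323% in chains of 5 elsewhere. Longer chains, of 8, 10, 11 and 23 regions, occurred only on the other autosomes. They held 0.129%, 0.161%, 0.178% and 0.371% of the regions there. On chromosome 10 there were 28 chains in all without replicate 2 and 24 without replicate 3, none of them with 4 or more members. Partners in a chain could be unequal. Of the 96 neighbour pairs within 10 kb, 22 had all 3 replicates at both members, 59 at one of them and 15 at neither. The median difference in mean percentile was 25.2. Because 54.3% of all members had all 3 replicates, mixed pairs can be frequent whatever the distance. Pairs farther apart and pairs on the other autosomes were not compared.

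The longest chain on chromosome 10 had 5 members from 93395727 to 93416876, a length of 21.15 kb. It began with one of the strongest members, at 93395727 to 93396277, which scored 693.97, 971.69 and 1266.71 from replicate 1 to 3. Next to it, at 93400977 to 93401227, stood one of the weakest members, found in replicates 2 and 3 with scores of 72.15 and 70.43. The other three members, at 93406973 to 93407427, 93408977 to 93409376 and 93416373 to 93416876, had all 3 replicates and mean percentiles of 94.2, 70.9 and 91.7. Strong and marginal sites thus stood side by side in this chain.

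The remaining chains of 4 were weaker. The chain from 128356227 to 128368977 spanned 12.75 kb, and its mean percentiles were 35.2, 85.8, 53.2 and 79.6 in order of position. The chain from 74569778 to 74592377 spanned 22.6 kb with 68.8, 32.1, 62.4 and 86.2. In both, 2 of the members had all 3 replicates. The chain from 80119278 to 80135422 spanned 16.15 kb with 38.6, 46.5, 69.0 and 10.7, and the member with all 3 replicates was the weakest of them, scoring 71.04, 91.87 and 71.79 in replicates 1, 2 and 3.

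Long gaps took up less of the span than on most other autosomes. There were 24 gaps of at least 1 Mb, and 4 other autosomes had fewer, down to 15 on chromosome 19. The gaps made up 38.6% of the span, beside 54.8% over the other autosomes together, and chromosome 11, at 38.0%, was the single autosome with a lower share. The longest gap was 4.37 Mb, from 102406278 to 106778077, and the longest gap of each other autosome was between 5.15 and 9.54 Mb. Taken alone, each of the 3 lists also had its longest chromosome 10 gap there, at 4.37 Mb in all of them. No single-replicate region lay inside it.

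The gap from 99529027 to 102405872, the fifth in length at 2.88 Mb, was separated from the longest by 1 member. From 99529027 to 106778077, a stretch of 7.25 Mb, that member was the sole region of any kind in the lists. It lay at 102405873 to 102406277. It scored 156.04, 204.36 and 268.60 in the order of the replicate numbers, at percentiles 68.7, 76.7 and 84.4. It was the most isolated member of the chromosome, 2.88 Mb from the nearest other, and was present in every list. The members most like it in isolation were found in replicates 2 and 3, at 123786377 to 123786777, 1.50 Mb from the nearest other, and at 50321928 to 50322276, 1.18 Mb away.

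The gaps next in length after the longest were 62687378 to 66289126 (3.60 Mb), 45035177 to 48269572 (3.23 Mb) and 70755528 to 73955626 (3.20 Mb). The gaps starting at 62687378 and 70755528 flank the dense run from 66 to 71 Mb. The gap at 62687378 held 4 single-replicate regions, the one at 45035177 held 3 and the one at 70755528 held none. Over all 24 gaps of at least 1 Mb there were 43 single-replicate regions, or 0.878 per Mb, below the 3.60 per Mb of the whole chromosome. When all 3 replicates were required, the longest gap moved to 45035177 to 51665572 and was 6.63 Mb long, because the members inside it lacked a replicate. Without replicate 2 it was also 6.63 Mb, over nearly the same positions.

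The strongest member, at 13703473 to 13704027, scored 1354.26, 1796.34 and 1880.01 in replicates 1, 2 and 3 and ranked second, first and first in the lists. It was 555 bp wide and stood 2.45 kb from a far weaker member at 13706477 to 13706826, which scored 92.09, 142.27 and 90.79. Both formed a triplet with a member at 13708127 to 13708477. The second strongest, at 12631873 to 12632377, lay 1.07 Mb away from the strongest. Its scores were 839.97, 1043.97 and 1306.39, at ranks 21, 35 and 21.

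Next in strength was the member at 56640977 to 56641527, with scores of 708.44, 1029.81 and 1214.77. It was followed by the first member of the chain of 5. The fifth, at 94466723 to 94467227, scored 708.31, 966.53 and 1095.38. The sixth, at 28928428 to 28928927, scored 670.17, 880.79 and 1447.52, at ranks 46, 70 and 12. Replicate 3 therefore placed it well above the other lists. The seventh, at 69547928 to 69548476, scored 514.71, 1281.24 and 1157.60 at ranks 99, 13 and 34, so replicate 1 placed it lowest. The eighth, at 59216878 to 59217377, had the same order, with ranks of 155, 16 and 87.

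The ninth strongest, at 129871173 to 129871727, was the last region of any list on the chromosome. It scored 409.86, 991.48 and 1117.54 and lay 637.6 kb from the nearest other member. The tenth, at 96334128 to 96334677, and the eleventh, at 59283928 to 59284472, had mean percentiles of 98.2 and 98.0. The eleventh lay 67.05 kb from the eighth.

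The twelfth to the twentieth had mean percentiles from 97.4 down to 96.3. In order of strength they stood at 21379577 to 21380127, 17069823 to 17070327, 7008723 to 7009176, 16732377 to 16732872, 60740677 to 60741177, 16754628 to 16755127, 116365827 to 116366277, 99252073 to 99252527 and 18887578 to 18888077. The members at 16732377 and 16754628 were 22.25 kb apart from start to start. The member at 7008723 ranked 155, 95 and 464 in replicates 1, 2 and 3, and the one at 116365827 ranked 222, 104 and 509, so replicate 3 placed both lowest.

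The 20 strongest members fell into 12 of the 26 bins of 5 Mb. Between 10 and 20 Mb, where 11.1% of all members lay, there were 6. Between 55 and 61 Mb there were 4. Both windows were chosen after the sites were seen. The 20 members were 451 to 555 bp wide. Another member lay within 10 kb of 7 of the 20, beside 30.0% of all members. Of the 50 strongest regions with all 3 replicates on the autosomes, 7 (14%) lay on chromosome 10, and of the 500 strongest 50 (10.0%) did, beside 8.97% of all 3555 such regions. Of the 100 strongest, 8 (8%) did, so the share had no steady order.

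The widest members were not among the strongest. The widest, at 95800728 to 95801476, was 749 bp wide with peaks of 200, 650 and 350 bp in replicates 1, 2 and 3 and scores of 88.62, 296.19 and 225.75. The second, at 94902578 to 94903322 and 745 bp wide, had peaks in replicates 1 and 3 with scores of 81.87 and 277.28. Next came 41272573 to 41273277, 705 bp wide, which scored 126.65, 294.18 and 645.17. Replicate 1 had the narrowest peak in each of these members.

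The regions at the edge of the membership rule overlapped in score. The weakest member, at 77037228 to 77037672, scored 70.27 in replicate 1 and 70.07 in replicate 3. The strongest member with exactly 2 replicates, at 11000327 to 11000977, scored 262.75 and 435.19 in replicates 2 and 3. The best single-replicate regions were 57786228 to 57786377, 65816878 to 65817277 and 66382878 to 66383327, all from replicate 3, with scores of 359.40, 315.78 and 299.27. The best regions left out by the rule thus scored above the weakest that it kept. Of the 457 single-replicate regions, 116 (25.4%) lay within 10 kb of a member, beside 30.0% of members with another member that near. The same share of single-replicate regions on the other autosomes was not computed.

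The authors' merged list had 1226 intervals on chromosome 10. All of them lay inside members, and every one of the 587 members held between 1 and 3 of them, on average 2.09. They had a median length of 101 bp, and 447 (36.5%) were shorter than 50 bp.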

How the data were processed

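Anti-HA ChIP-seq of 3 replicates of doxycycline-treated C2C12 cells was described from the deposited peak lists. Peaks were called separately per replicate by the authors with MACS, per the peak names in the deposited files, and the submitters' processing notes name mm9 as the build. The sources used here do not state the caller's version, settings or control. Each deposited peak has a start, an end and a score of unnamed type, and the authors' merged list has coordinates alone.

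Overlapping or abutting peaks were joined, and regions on chromosome 10 with at least 2 replicates were kept. Starts are printed counted from 1. Bins used region midpoints, and spans ran from the first to the last peak of a chromosome in any list. Where a list had several peaks in a region, the best was used. Python 3.11.15, NumPy 2.4.6, pandas 2.3.3, SciPy 1.17.1 and matplotlib 3.10.9 were used. bedtools 2.31.1 gave the same 12580 regions and 587 members. Joining and counting were tested on simulated lists. Intervals are 95% Wilson intervals for counting error over regions, peaks or bins.

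Named were the 20 strongest members with all 3 replicates, chains of 4 or more, the 5 longest gaps, the fullest and emptiest bins, the 3 widest members and the 3 best single-replicate regions. Other positions, among them the most isolated members, the triplet at the strongest site and the extremes with exactly 2 replicates, were chosen after their values were seen. The members and these rules were chosen with earlier results of these data known. No test was run.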

Additional observations from a re-analysis of the deposited data

How the results depend on the processing

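Of 91 alternative values, 50 stayed within the spread between lists, within the counting interval or, for counts, within 1.5 times the reported count. The other 41 moved. The spread was 2.9e-05 Mb for the longest gap and 11.8 percentage points for the share of crowded bins. A crowded-bin share of 4.72% without replicate 2, beside 15.7%, thus counted as staying. The yardsticks are uneven, so these counts do not measure robustness across results. A reversal was defined only for the density of members relative to the other autosomes, and 0 of its alternatives reversed. The alternatives for crowded bins, chains and the span in long gaps were chosen after seeing the data; the last ranged from 42.4% to 48.2% without 1 replicate, beside 57.5% to 68.1% elsewhere. Members numbered 319 when all 3 replicates were required, 323 with peaks at or above the median score of their list and 369 with equal numbers of best peaks, where fewer peaks or regions enter by construction. Without 1 replicate, when both remaining lists had to have a peak, they numbered 335 to 522 (367 without replicate 2, 335 without replicate 3). The density relative to the other autosomes was 1.83 with peaks above the median score, 1.78 with equal numbers of best peaks and 1.81 without the 5 fullest bins of 5 Mb of every autosome. It was 1.65 to 1.80 without 1 replicate, and chromosome 10 ranked first of the autosomes in each of the 11 settings. The mean of the lists' own relative densities was 1.64 to 1.72 without 1 replicate. By construction such a mean stays within 1 SD of the mean of all 3 lists, so it could not have moved. The share with all 3 replicates rose to 69.4% with equal numbers of best peaks, beside 64.8% on the other autosomes. The share with another member within 10 kb was 14.4% with all 3 replicates required, 16.4% with peaks above the median score (13.8% elsewhere) and 15.2% to 28.2% without 1 replicate. With near distances of 5, 20 and 50 kb it was 17.4%, 44.6% and 65.9%, beside 11.4%, 31.3% and 51.2% elsewhere. Sequencing depth is unknown, so how far it sets the number of members was not tested. No paired analysis was possible because there is 1 group.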
